A study of Mus musculus with 9 samples.

Results

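Bone marrow T-cells of mice carrying B-cell acute lymphoblastic leukemia (B-ALL) and given no active treatment were compared with those of mice without leukemia, 7 days after leukemia cells were transferred. The comparison used 6 of the 9 mice in the series, 3 without leukemia and 3 vehicle treated mice with leukemia, and all 785 probes of the panel. All mice were female, wild-type, unirradiated C57BL/6 mice, 6 to 8 weeks old, allocated at random to their groups. Leukemia came from 1 cell line, a luciferase-expressing BCR-ABL1 Arf-/- B-ALL line, of which 200000 cells were injected into the tail vein. The methods call these mice vehicle treated and give bovine serum albumin (BSA) as the vehicle in a parallel experiment, while the sample labels list them as having had no treatment. T-cells were isolated with a magnetic pan-T-cell kit and their RNA was measured on the nCounter Mouse Immune Exhaustion panel. This assay counts individual RNA molecules through color-coded probes without amplification. The remaining 3 mice, given recombinant interleukin-12 (rIL-12, 1 μg per dose from day 3), entered the model to estimate the spread between mice. They were also part of the scaling between mice and of the filters on low counts.

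T-cells that circulate through bone marrow are a mixture of naive, memory and effector cells. Naive and central memory T-cells keep a program in which the transcription factors FOXO1, KLF2 and LEF1 sustain receptors for homing and recirculation, among them CCR7 and S1PR1, and this program is turned down when T-cells are activated and differentiate. Signals from the T-cell receptor pass from the CD3 chains and the kinase LCK, which the CD8 and CD4 coreceptors bring to the receptor, to the adaptor GRAP2 and to diacylglycerol, which RASGRP1 senses and the kinase DGKA removes. B-ALL is a malignancy of B-cell precursors that grows in the same marrow, beside myeloid cells, mast cells and basophils.

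The total count was 467447 to 478865 in the mice without leukemia and 257613 to 548385 in the vehicle treated mice, of which mouse 3 had the lowest. A probe for a viral gene absent from mice gave 53 to 114 counts over the 9 mice, with a mean of 91, and a count in that range or below it can hold background. Values below are normalized counts, that is, counts scaled between mice by the TMM method of edgeR, and fold changes are vehicle treated mice over mice without leukemia. The labelled cell type was checked against Cd3d, Cd3e and Cd3g, which encode the CD3 chains of the T-cell receptor. The lowest raw count of any of the 3 was 459 without leukemia and 186 with leukemia, above the viral probe in each mouse. This shows that T-cell RNA was present and not what share of the RNA came from T-cells. Markers of other cells were present as well and are given with the results. The 13 myeloid markers summed to 12770 to 15190 normalized counts without leukemia and 14290 to 19080 with leukemia. The 6 T-cell surface genes summed to 2921 to 5061 and 1937 to 2641. Such sums are not ratios of cell numbers, and changes below are those of the isolates.

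In vehicle treated mice with leukemia, 11 genes fell and 10 rose. Those that fell were the CD8 coreceptor genes Cd8a and Cd8b1, the naive T-cell genes Ccr7, Klf2, Lef1, Foxo1 and S1pr1, the receptor signaling genes Rasgrp1 and Dgka, the costimulatory receptor gene Cd226 and 1 probe without a symbol. Of those that rose, 9 are described here, namely the coinhibitory receptor genes Lag3, Pdcd1 and Tigit, the cytokine gene Il10, the TNF receptor family member Tnfrsf9 and the NF-kB subunit gene Nfkb2, together with Ms4a2, Cpa3 and Alox5, which mast cells and basophils express. A gene was called differentially expressed when its adjusted p was under 0.05 and its fold change was 1.5 or more. The 21 genes were 2.68% of the 785 probes, with 1.27% higher and 1.40% lower. Values of the groups did not overlap for 177 probes, 22.5% of all, with 12.7% higher and 9.81% lower with leukemia. Over all probes the log2 fold change had a median of 0.049. Calls depended on single mice. With mouse 1 or mouse 3 left out of the group without leukemia, or mouse 3 left out of the vehicle treated group, edgeR called none, and 61, 66 and 75 genes then had an unadjusted p under 0.05 and a fold change of 1.5 or more. Without mouse 2 of the vehicle treated mice 2 calls were left (Cpa3 and Ms4a2), without mouse 1 there were 34, and without mouse 3 of the rIL-12 group there were 42. Scaling by 11 housekeeping genes, which moved the median of all probes to 0.16, left 3 calls, for Cpa3, Ms4a2 and the probe without a symbol.

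Both chains of CD8, the coreceptor of cytotoxic T-cells, fell, and the decrease of Cd8b1 was the largest of all 785 probes. Cd8b1, the beta chain, had 2039, 1008 and 1804 normalized counts in the 3 mice without leukemia and 683, 245 and 152 in the 3 vehicle treated mice. The lowest mouse without leukemia thus lay above the highest mouse with leukemia, and mice 2 and 3 with leukemia lay well below mouse 1. The log2 fold change of Cd8b1 was −2.15 (standard error 0.45), a 4.45-fold decrease, with an adjusted p of 0.0249 by edgeR's Benjamini-Hochberg adjusted quasi-likelihood test. Cd8a, the alpha chain, had 590, 346 and 480 normalized counts without leukemia and 266, 99.7 and 68.5 with leukemia. Its groups did not overlap either, and mouse 3 with leukemia, with 41 raw counts, lay under the range of the viral probe. The log2 fold change of Cd8a was −1.68 (standard error 0.39), with an adjusted p of 0.0399 from the same edgeR test, and it missed the threshold when probes at or below the viral probe were left out. In bulk RNA, fewer cells of a type and less RNA per cell cannot be told apart.

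Cd4, the coreceptor of helper T-cells, had 208, 146 and 107 normalized counts without leukemia and 201, 369 and 251 with leukemia. The groups overlapped through mouse 1 of each, and the log2 fold change of 0.83 (standard error 0.33) did not pass, with an adjusted p of 0.223 by edgeR's Benjamini-Hochberg adjusted quasi-likelihood test. Within each mouse, the ratio of Cd8b1 to Cd4 counts was 9.80, 6.92 and 16.8 without leukemia and 3.40, 0.663 and 0.607 with leukemia. The ratio of Cd8a to Cd4 counts was 2.84, 2.38 and 4.48 without leukemia and 1.33, 0.270 and 0.273 with leukemia. Both ratios, which do not depend on the scaling between mice, were lower in each mouse with leukemia than in each mouse without. They describe the balance between probes and are not ratios of cell numbers, since probes differ in how well they capture RNA.

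**Figure D1:**
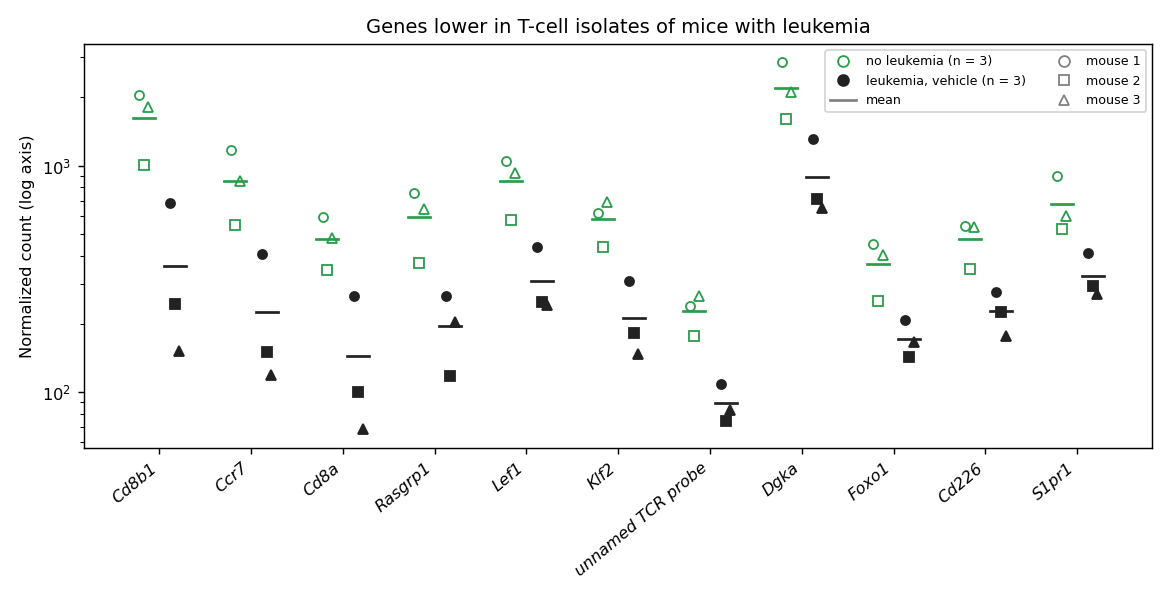
Normalized counts (log axis) of the 11 genes that fell, in mice without leukemia (green, open, n = 3) and vehicle treated mice with leukemia (black, filled, n = 3); circles, squares and triangles are mice 1, 2 and 3 and lines are means. No gene has overlapping groups, and mouse 1 of the vehicle treated mice is the highest of its group for each gene.

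Of 11 measured genes of naive and memory T-cells, 5 fell, none rose, and the log2 fold change of all 11 was under 0, with a median of −0.90. Over all 785 probes, 1.40% fell and 331 had a log2 fold change under 0. Ccr7, the chemokine receptor that directs naive and central memory T-cells to lymph nodes, had 1176, 546 and 852 normalized counts without leukemia and 406, 151 and 119 with leukemia. Mice 2 and 3 with leukemia were again the lowest, and the groups did not overlap. The log2 fold change of Ccr7 was −1.91 (standard error 0.42), a 3.77-fold decrease. S1pr1, the receptor through which T-cells leave lymphoid organs and marrow, had 896, 523 and 601 normalized counts without leukemia and 411, 293 and 271 with leukemia. Its decrease was smaller, at −1.05 on the log2 scale (standard error 0.23). The adjusted p was 0.0297 for Ccr7 and 0.0310 for S1pr1 by edgeR's Benjamini-Hochberg adjusted quasi-likelihood test.

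Transcription factors of this program fell as well. Klf2, which controls S1pr1 and other trafficking genes in T-cells, had 616, 439 and 690 normalized counts without leukemia and 310, 183 and 147 with leukemia. Lef1, a TCF/LEF family factor of T-cell development and naive T-cells, had 1051, 574 and 928 without leukemia and 438, 251 and 242 with leukemia. Foxo1, a factor that keeps naive T-cells quiescent, had 451, 253 and 403 without leukemia and 208, 142 and 167 with leukemia. In all 3 the highest mouse with leukemia was below the lowest mouse without. The log2 fold changes were −1.43 (standard error 0.26) for Klf2, −1.45 (0.27) for Lef1 and −1.09 (0.22) for Foxo1. The adjusted p was 0.0187 for Klf2 and Lef1 and 0.0241 for Foxo1 by edgeR's Benjamini-Hochberg adjusted quasi-likelihood test.

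The remaining 6 genes of this list did not pass. Bcl2, which encodes a survival protein of resting lymphocytes, had 1490, 1085 and 1236 normalized counts without leukemia and 829, 593 and 613 with leukemia, and its groups did not overlap. Its log2 fold change was −0.90 (standard error 0.25), with an adjusted p of 0.0913 by edgeR's Benjamini-Hochberg adjusted quasi-likelihood test. Another 4, of which all but Cd27 were chosen to complete the list after their values were seen, had overlapping groups. Their log2 fold changes were −0.75 for Il7r, the interleukin-7 receptor alpha chain, −0.60 for Il6ra, −0.32 for Cd27 and −0.14 for Foxo3.

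Promoter sequences are shown for 2 of these transcription factors and for Cd8a, whose counts fell together, to show the DNA before their starts and the letters to which KLF family factors bind, CACCC. The sequences are the 250 bases before the transcription start from RefSeq (build GRCm38.p6, each on the + strand and 5′ to 3′), with CACCC and its reverse complement GGGTG in capitals. They lie at chr8:72318812-72319061 for Klf2, chr3:131110047-131110296 for the first listed start of Lef1 and chr6:71373177-71373426 for Cd8a.
Klf2: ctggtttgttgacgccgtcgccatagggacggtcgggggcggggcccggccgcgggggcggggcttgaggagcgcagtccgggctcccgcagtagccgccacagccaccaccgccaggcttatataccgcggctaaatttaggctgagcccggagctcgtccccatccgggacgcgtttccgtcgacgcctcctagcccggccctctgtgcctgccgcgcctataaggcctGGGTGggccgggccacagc
Lef1: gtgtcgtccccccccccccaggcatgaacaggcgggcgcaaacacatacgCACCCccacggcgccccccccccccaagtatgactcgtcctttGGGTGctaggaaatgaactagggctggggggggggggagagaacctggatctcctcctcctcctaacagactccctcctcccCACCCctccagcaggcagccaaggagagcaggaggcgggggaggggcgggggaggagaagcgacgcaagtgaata
Cd8a: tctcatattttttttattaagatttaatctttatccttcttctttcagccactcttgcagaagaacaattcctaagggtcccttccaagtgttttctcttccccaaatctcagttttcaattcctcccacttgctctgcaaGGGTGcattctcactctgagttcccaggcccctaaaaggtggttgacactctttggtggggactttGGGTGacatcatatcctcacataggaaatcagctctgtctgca

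These stretches hold 1 match for Klf2, 3 for Lef1 and 2 for Cd8a. The promoter of Foxo1, the other transcription factor of this program that fell, was at hand but is not printed. It held 0 matches to CACCC on either strand. RefSeq windows of 300 bases (250 before a start and 50 after it) were at hand for 13 of the 20 differentially expressed genes with a symbol, several of them with more than 1 start. A match to CACCC on either strand was present in 9 of 12 windows of genes that fell and in 7 of 10 windows of genes that rose, and in 57.5% of all 32851 windows. Windows of 1 gene are not independent, and some of them overlap. Counted by gene, 5 of 6 genes that fell and 5 of 7 that rose had a match in at least 1 window. The FOXO letters TGTTTAC were in no window of these 13 genes and in 3.65% of all windows, and the TCF/LEF letters CTTTGA were in 2 of 12 windows of genes that fell (of Lef1 and Dgka) and in 1 of 10 windows of genes that rose (of Tnfrsf9), and in 16.0% of all windows. Matches to CACCC and CTTTGA thus occurred among genes of both directions, and a match describes the sequence and not a bound site.

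The CD3 chains and other T-cell surface genes were lower in value without passing the test. Cd3d had 1861, 1081 and 1528 normalized counts without leukemia and 982, 908 and 553 with leukemia. Cd3e had 867, 464 and 685 without leukemia and 433, 296 and 311 with leukemia, and Cd3g had 1306, 710 and 1151 without leukemia and 602, 660 and 570 with leukemia. None of the 3 overlapped between groups. Their log2 fold changes were −0.87, −0.95 and −0.79 with adjusted p of 0.122, 0.112 and 0.108 by edgeR's Benjamini-Hochberg adjusted quasi-likelihood test. Trat1, an adaptor of the receptor complex, was at −0.70 with an adjusted p of 0.0503 from the same edgeR test, and Cd5 and Cd6, which temper receptor signals, were at −0.46 and −0.58 with overlapping groups. The sum of these 6 genes was 2921 to 5061 normalized counts without leukemia and 1937 to 2641 with leukemia.

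Signaling genes downstream of the receptor that fell were Rasgrp1, which transmits the signal, and Dgka, which limits it. Rasgrp1, the exchange factor that activates RAS when diacylglycerol is made, had 759, 371 and 645 normalized counts without leukemia and 266, 118 and 204 with leukemia. Its log2 value changed by −1.59 (standard error 0.32), a 3.01-fold decrease, and here mouse 2 of each group was the lowest. Dgka, the diacylglycerol kinase that ends this signal and is abundant in resting T-cells, had 2854, 1610 and 2110 without leukemia and 1313, 708 and 648 with leukemia. Its log2 fold change was −1.30 (standard error 0.29). The adjusted p was 0.0241 for Rasgrp1 and 0.0310 for Dgka by edgeR's Benjamini-Hochberg adjusted quasi-likelihood test.

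Around these genes, 19 of 20 measured genes of proximal receptor signaling had a log2 fold change under 0, with a median of −0.27, but only Rasgrp1 passed the test. Values of the groups did not overlap for 9 of the 20, all lower with leukemia. Over all 785 probes, 331 had a log2 fold change under 0 and 9.81% were lower without overlap. Grap2, the adaptor that joins LAT to SLP-76, had 1007, 579 and 701 normalized counts without leukemia and 538, 361 and 217 with leukemia (log2 fold change −1.02, standard error 0.31), and Prkcb was at −0.65. The kinase Lck, chosen after its values were seen, had 1792, 1093 and 1431 without leukemia and 996, 919 and 658 with leukemia, a log2 fold change of −0.74. Adjusted p was 0.112 for Grap2, 0.108 for Prkcb and 0.115 for Lck by edgeR's Benjamini-Hochberg adjusted quasi-likelihood test. Zap70, also chosen after its values were seen, was the exception above 0, at 0.04. Of 11 genes that restrain receptor signals, only Dgka passed, 8 were under 0 and the median was −0.15. Ptpn22, a phosphatase that inactivates LCK, was at −0.47 and Ptprc, the phosphatase CD45, at −0.29. A probe listed as Tcr_167.1:215, which has no symbol and whose name is all that ties it to the T-cell receptor, fell as well, from 239, 177 and 267 normalized counts to 109, 74.8 and 83.6. On the log2 scale it fell by 1.34 (standard error 0.21), and this had an adjusted p of 0.0110 by edgeR's Benjamini-Hochberg adjusted quasi-likelihood test.

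Because CD3 counts were lower with leukemia, each gene that fell was also set against CD3 within the same mouse, as a description with no test. The geometric mean of Cd3d, Cd3e and Cd3g was 1282, 709 and 1064 normalized counts without leukemia and 635, 562 and 461 with leukemia, a log2 difference of −0.85. Relative to it, 6 of the 11 genes were lower in each mouse with leukemia than in each mouse without. These were Cd8b1 (log2 difference −1.54), Ccr7 (−1.23), Cd8a (−1.06), Rasgrp1 (−0.76), Lef1 (−0.61) and the probe without a symbol (−0.50). The other 5 overlapped between groups, with −0.64 for Klf2, −0.48 for Dgka, −0.22 for Foxo1, −0.21 for Cd226 and −0.19 for S1pr1. The median over all 785 probes on this scale was 0.90, and 22 probes were below 0. Of genes chosen after their values were seen, Lck and Il7r (both 0.11) and Bcl2 (−0.06) lay near the CD3 genes, while Cd4 (1.69) was higher relative to them in each mouse with leukemia.

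**Figure D2:**
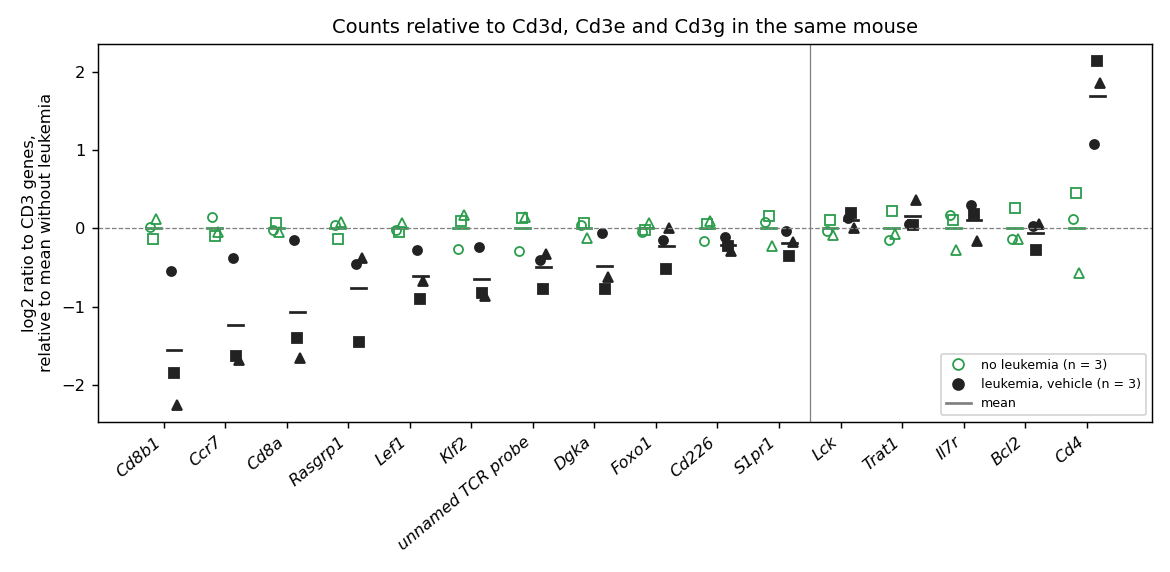
Log2 ratio of each gene's count to the geometric mean count of Cd3d, Cd3e and Cd3g in the same mouse, set to a mean of 0 without leukemia (green, open, n = 3), beside vehicle treated mice with leukemia (black, filled, n = 3); circles, squares and triangles are mice 1, 2 and 3 and lines are means. The 11 genes that fell stand left of the vertical line, where Cd8b1, Ccr7 and Cd8a lie lowest (means of −1.54, −1.23 and −1.06) and Foxo1, Cd226 and S1pr1 overlap with mice without leukemia.

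Costimulatory receptors went both ways. Cd226, an activating receptor that shares its ligands with TIGIT, had 542, 348 and 536 normalized counts without leukemia and 278, 226 and 177 with leukemia, a log2 fold change of −1.06 (standard error 0.23). Tnfrsf9, which encodes 4-1BB, a receptor induced on activated T-cells, had 71.1, 69.8 and 62.8 without leukemia and 92.9, 149 and 221 with leukemia, a log2 fold change of 1.15 (standard error 0.27). Its raw counts without leukemia, 65 to 69, lay within the range of the viral probe, and its call was lost with total count scaling and without probes at background. The adjusted p was 0.0297 for Cd226 and 0.0414 for Tnfrsf9 by edgeR's Benjamini-Hochberg adjusted quasi-likelihood test. With the mouse number as a block, Cd226 missed the threshold (adjusted p = 0.0524 by the quasi-likelihood test of edgeR). The other 10 of 12 measured members did not pass, and the median was −0.13, with Slamf6 at −0.46 and Crtam at −0.44.

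Nfkb2, which encodes the p100 subunit of the noncanonical NF-kB pathway, had 414, 353 and 362 normalized counts without leukemia and 529, 617 and 602 with leukemia. The groups did not overlap, and its log2 fold change of 0.63 (standard error 0.15), a 1.54-fold increase, was the smallest of the 21. The adjusted p was 0.0424 by edgeR's Benjamini-Hochberg adjusted quasi-likelihood test and 0.0616 with the mouse number as a block, and the call was also lost under RLE scaling. The other 11 of 12 NF-kB and TRAF genes did not pass, with Nfkbia, which encodes an inhibitor of NF-kB, at 0.23, Traf2 at −0.20 and a median of 0.04 that turned to −0.0029 under RLE scaling. Of 19 genes of the TNF superfamily only Tnfrsf9 passed, with a median of 0.17 and Fas, the death receptor, at −0.47.

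Il10 was the only cytokine gene of 28 measured that passed the test. It had 19.1, 22.3 and 22.2 normalized counts without leukemia and 52.5, 114 and 80.2 with leukemia. The mice without leukemia were almost alike and all below the lowest mouse with leukemia, yet their raw counts, 18 to 23, lay under the viral probe, and those with leukemia, 48 to 123, spanned it. The log2 fold change of Il10, which encodes an anti-inflammatory cytokine, was 1.91 (standard error 0.37), with an adjusted p of 0.0187 by edgeR's Benjamini-Hochberg adjusted quasi-likelihood test. Next to it, Il21, a cytokine of helper T-cells, had 14.9, 32.4 and 23.2 normalized counts without leukemia and 43.4, 50.8 and 86.9 with leukemia (log2 fold change 1.28, adjusted p = 0.134 from the same edgeR test), again within background. Csf1, the growth factor of macrophages, was at 0.56, and 21 of the 28 cytokines were above 0, with a median of 0.13. Of all 785 probes, 454 were above 0.

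None of the 20 measured cytokine receptor genes passed. Il12rb1, a chain of the IL-12 and IL-23 receptors, had 78.5, 85.0 and 72.5 normalized counts without leukemia and 104, 251 and 137 with leukemia. Its groups did not overlap, and its log2 fold change was 1.06 (standard error 0.41). Il21r, the receptor of IL-21, had 621, 456 and 511 without leukemia and 344, 335 and 242 with leukemia, a log2 fold change of −0.78 (0.22), and Il2ra, the IL-2 receptor alpha chain, was at −0.86 (0.28). Adjusted p was 0.223 for Il12rb1, 0.0913 for Il21r and 0.134 for Il2ra by edgeR's Benjamini-Hochberg adjusted quasi-likelihood test. Downstream of these receptors, Jak1 was at −1.0 (861, 518 and 906 without leukemia, 534, 294 and 311 with leukemia, overlapping), Stat4, which carries the IL-12 signal, at −0.61, and Socs2, a feedback inhibitor, at 1.11 (67.9, 69.8 and 77.3 without leukemia, 84.8, 190 and 196 with leukemia). Stat4 also had overlapping groups. Jak3, chosen after its values were seen, was at 0.75 and higher in each mouse with leukemia than in each mouse without. None of the 15 JAK, STAT and SOCS genes passed, and their median was 0.00.

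Among 11 genes of regulatory T-cells, which also hold Il10, no other member passed. Foxp3, their defining factor and chosen after its values were seen, was at −0.08. Itgae, the integrin CD103 of tissue-resident and regulatory T-cells, had 191, 123 and 188 normalized counts without leukemia and 104, 24.9 and 43.4 with leukemia. The groups did not overlap, but mice 2 and 3 with leukemia lay under the range of the viral probe, and the log2 fold change of −1.51 (standard error 0.41) had an adjusted p of 0.0855 by edgeR's Benjamini-Hochberg adjusted quasi-likelihood test. With the mouse number as a block it passed, with an adjusted p of 0.00686 by the quasi-likelihood test of edgeR. The other integrins and adhesion genes did not pass, with Pecam1 at −0.43, Cdh1 at 0.53 and a median of −0.16 over 12 genes.

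Of 16 coinhibitory receptors, 3 rose and none fell. Over all 785 probes, 1.27% rose, 1.40% fell and 454 had a log2 fold change above 0. Lag3 rose from 52.0, 72.8 and 36.7 normalized counts to 134, 327 and 224, Pdcd1 from 55.2, 67.8 and 60.9 to 101, 236 and 221, and Tigit from 104, 183 and 117 to 231, 551 and 423. For all 3, mouse 1 was the lowest of the vehicle treated mice and mouse 2 the highest. The median over the 16 was 0.09. None of 14 ligands of checkpoint and costimulatory receptors passed, 12 of them being above 0, with Cd274 (PD-L1) at 0.57, Cd80 at 0.53, Pdcd1lg2 (PD-L2) at 0.33 and a median of 0.18.

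**Figure D3:**
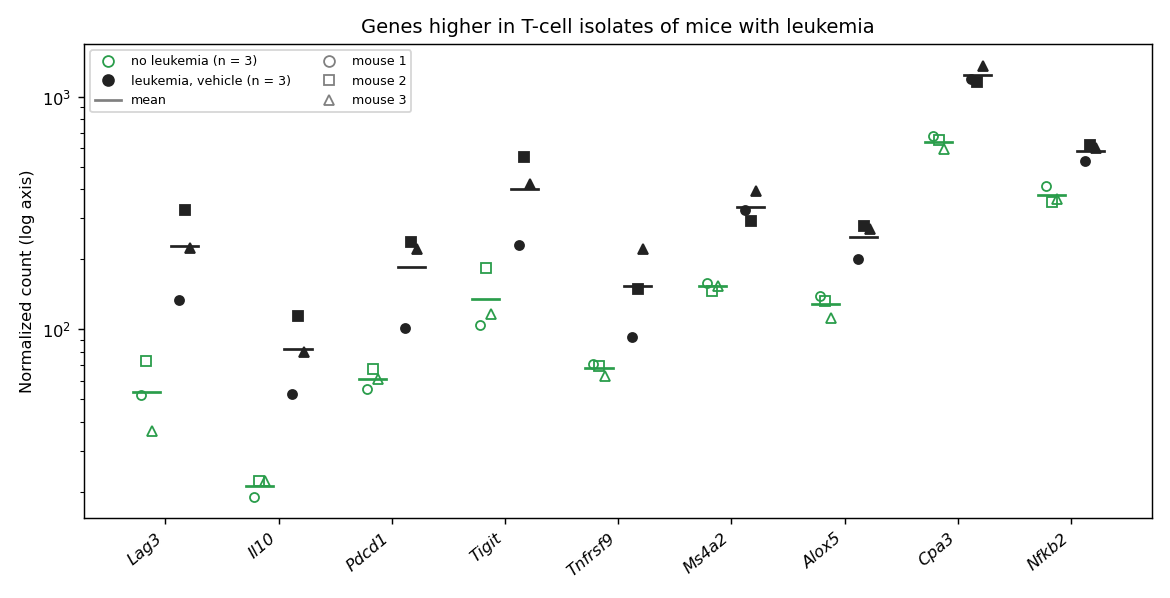
Normalized counts (log axis) of 9 genes that rose, in mice without leukemia (green, open, n = 3) and vehicle treated mice with leukemia (black, filled, n = 3); circles, squares and triangles are mice 1, 2 and 3 and lines are means. No gene has overlapping groups, mouse 1 is the lowest vehicle treated mouse for 7 of the 9 genes, and Cpa3, Ms4a2 and Nfkb2 show the least spread.

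No effector gene passed the test. Of 13 cytotoxic granule and death ligand genes, Gzmb, which encodes granzyme B, came nearest, with 62.6, 58.7 and 44.5 normalized counts without leukemia and 83.8, 137 and 91.9 with leukemia. Its log2 fold change was 0.91 (standard error 0.23), with an adjusted p of 0.0501 by edgeR's Benjamini-Hochberg adjusted quasi-likelihood test, and its raw counts without leukemia, 46 to 59, lay at the level of the viral probe. Ctsw, a protease of cytotoxic lymphocytes, was at −0.83 and Prf1, which encodes perforin, at −0.43, and the median of the list was 0.20. Of 9 killer lectin-like and other NK receptors none passed, with Klrd1 (CD94) at −1.03, Crtam at −0.44 and Cd244a at 0.37. Of 18 effector and exhaustion transcription factors none passed. Eomes, a T-box factor of memory and cytotoxic cells, had 92.3, 75.9 and 124 normalized counts without leukemia and 58.5, 57.2 and 40.1 with leukemia (log2 fold change −0.87, adjusted p = 0.0913 by edgeR's Benjamini-Hochberg adjusted quasi-likelihood test), Tox2 was at 1.09 with overlapping groups, and Irf4 was at 0.47. Tox itself, chosen after its values were seen, was at −0.34.

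Interferon response and antigen presentation genes were mostly above 0 without any passing the test. Of 15 interferon response genes 13 were above 0, with a median of 0.32. Gbp2, a guanylate-binding protein induced by interferon gamma, had 163, 127 and 133 normalized counts without leukemia and 229, 703 and 232 with leukemia, and its log2 fold change of 1.46 (standard error 0.67) was 0.72 without mouse 2 of the vehicle treated mice. Mouse 2 was also the highest for Oas2 (207) and Ifit3 (197), whose other 2 mice with leukemia lay between 81.9 and 127. Of 11 genes of MHC class I and antigen processing 9 were above 0 and 4 had groups that did not overlap, all higher, with a median of 0.45. Over all 785 probes, 454 were above 0 and 12.7% were higher without overlap. Psmb9, an immunoproteasome subunit, was at 0.53 and H2-M3 and H2-Q2, nonclassical class I genes, at 0.46 and 0.60. Of 8 genes of MHC class II and its control 5 were above 0, and the median was 0.21. H2-Eb1 was at 0.91, H2-Ab1 at 0.70 and H2-Aa at 0.65, each higher without overlap. The others were given to complete the list after their values were seen. Ciita was at 0.29, H2-DMb1 at 0.12, and H2-DMb2 and H2-DMa both at −0.02, all with overlapping groups. H2-Ob was at −0.19 and lower without overlap. These class II genes are made by antigen presenting cells and B-cells and not as a rule by mouse T-cells.

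None of 13 chemokines passed, and 12 were above 0, against 454 of all 785 probes. Ccl3, Ccl4 and Ccl2 were at 0.62, 0.56 and 0.60. Their raw counts were no more than 81, within or below the range of the viral probe. Of 6 chemokine receptors, Ccr7 fell and Ccr2, carried by monocytes, was at 0.29. Early activation genes were split, with Cd38 at 0.84, Nr4a1 at 0.33 and Jun at −0.40, and none of 8 passed.

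Lists of growth, signaling and metabolism showed no call beyond those already given. No gene passed among 6 cell cycle genes (median −0.23, with Cdc25a at −0.24, Cdc20 at −0.22 and E2f2 at 0.19), 5 glycolysis genes (median 0.15, with Ldha at 0.35, Aldoa at 0.24 and the glucose transporter gene Slc2a3 at −0.30) or 13 genes of mitochondria, lipid and amino acid metabolism. The values in the last list lay between −0.27 for Sdha and 0.14 for Got2, and no gene of it had groups without overlap. Of 15 PI3K, AKT and mTOR genes, Pik3r1 was at −0.61, Pik3ca at −0.43 and Rictor at −0.36, each lower in every mouse with leukemia, and none passed. None of 18 MAPK genes passed, with Mapk13 at 0.56 and Map3k8 at 0.38, and none of 17 apoptosis genes, which include Bcl2 and Fas. The 7 TGF-beta genes were between −0.25 for Smad2 and 0.30 for Bmp2. The medians of 8 lists changed sign with the scaling, being under 0 with TMM and above 0 with housekeeping genes for early activation, MAPK and apoptosis, and above 0 with TMM and under 0 with RLE scaling for cytokine receptors, JAK, STAT and SOCS genes, NF-kB genes, PI3K genes and mitochondria.

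**Figure D4:**
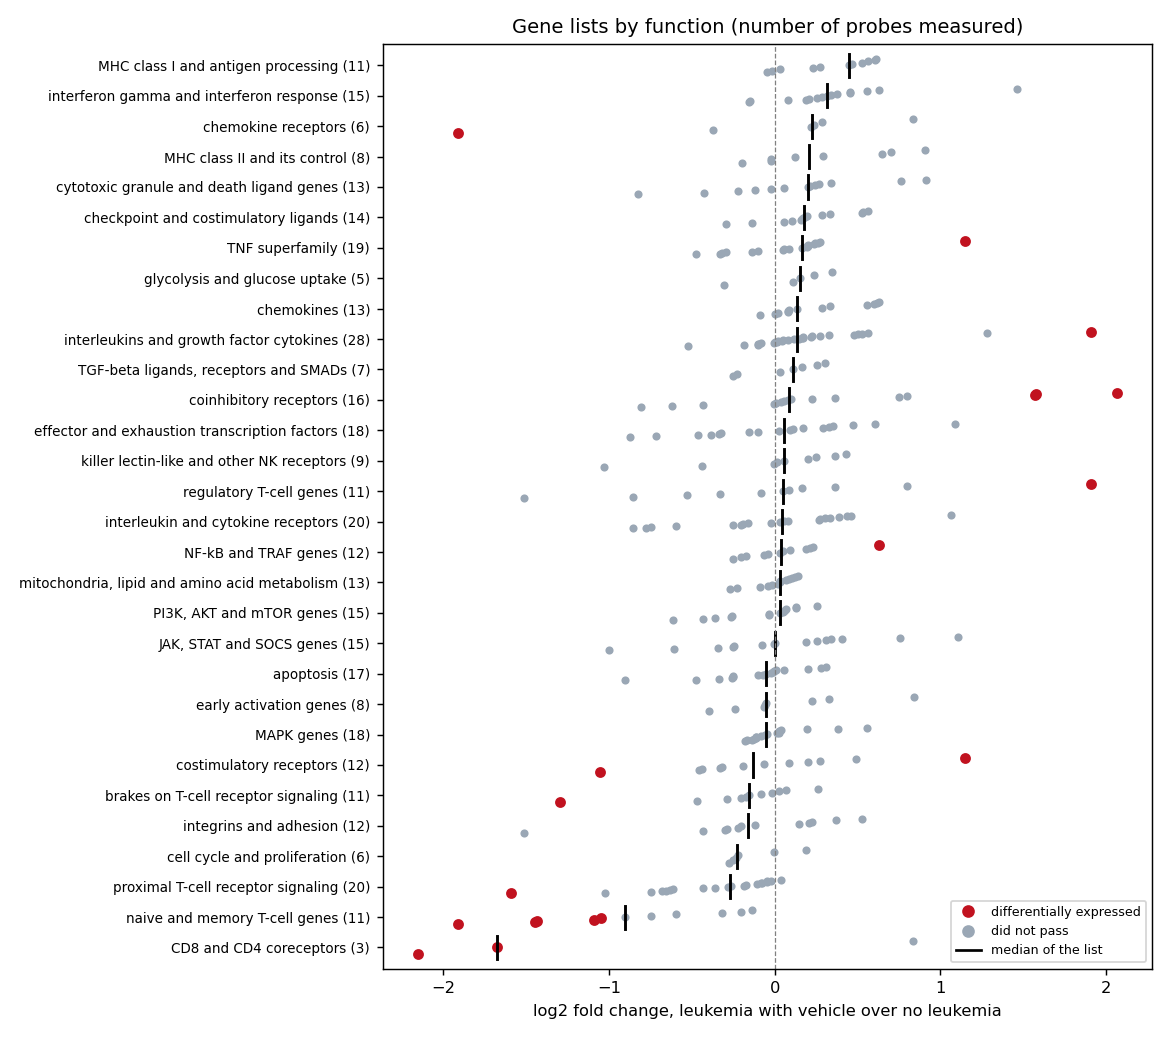
Log2 fold change of vehicle treated mice with leukemia over mice without leukemia for each measured gene of the 30 function lists; each point is 1 probe, red points are differentially expressed, gray points did not pass, and the black line is the median of the list. The CD8 and CD4 coreceptors and the naive and memory genes have the lowest medians (−1.68 and −0.90), and 11 of the 30 lists hold a red point.

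Some markers of other cells also differed between the groups, and their part in the results was not tested. Ms4a2, the beta chain of the high-affinity IgE receptor of mast cells and basophils, had 158, 147 and 154 normalized counts without leukemia and 326, 293 and 393 with leukemia. Cpa3, a protease of mast cells and basophils, had 675, 649 and 597 without leukemia and 1185, 1157 and 1360 with leukemia. The groups were far apart and the mice of each group close together, and these 2 genes had the lowest adjusted p of those that rose. The log2 fold changes were 1.13 (standard error 0.19) for Ms4a2 and 0.94 (0.15) for Cpa3, with adjusted p of 0.0148 and 0.0110 by edgeR's Benjamini-Hochberg adjusted quasi-likelihood test. Hdc, which makes histamine, was at 0.44 without overlap, Fcer1g at 0.10, Tpsb2 at 0.13 and Il4 at −0.09 (the last 2 given to complete the list after their values were seen). Thus 2 of 6 members of this list passed, both higher, against 1.27% higher over all probes. The list was chosen with earlier results of these data known, so this describes the list and tests nothing. The sum of the 6 was 2008 to 2239 without leukemia and 2907 to 3155 with leukemia. Alox5, the 5-lipoxygenase of leukotriene synthesis in myeloid and mast cells, rose from 139, 132 and 112 to 201, 278 and 271, a log2 fold change of 0.96 (standard error 0.18), with an adjusted p of 0.0187 by edgeR's Benjamini-Hochberg adjusted quasi-likelihood test.

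B-cell markers, which B-ALL cells can also carry, included Cd79b at −0.03, Cd22 at 0.07, Blk at 0.06, Cd72 at −0.06 and Btk at 0.21. None of these 5 passed, and Cd79b and Cd72 were above 0 with housekeeping scaling. The sum of the 9 B-cell markers measured was 1853 to 1930 without leukemia and 2083 to 2353 with leukemia.

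Against 454 of all 785 probes above 0, 12 of 13 myeloid markers were above 0, with a median of 0.26, and none passed. Their sum was 12770 to 15190 without leukemia and 14290 to 19080 with leukemia, with the most counts from Tyrobp, an adaptor of myeloid and NK receptors, at 5997, 6762 and 5416 without leukemia and 8204, 8919 and 5845 with leukemia. Cebpb, a factor of granulocytes and monocytes, had 682, 909 and 586 normalized counts without leukemia and 1190, 1275 and 969 with leukemia (log2 fold change 0.66), and Fcgr2b, an inhibitory Fc receptor of myeloid and B-cells, was at 0.52. Adjusted p was 0.108 for Cebpb and 0.112 for Fcgr2b by edgeR's Benjamini-Hochberg adjusted quasi-likelihood test. Dendritic cell markers summed to 2042 to 2545 without leukemia and 1788 to 1824 with leukemia, with Siglech of plasmacytoid dendritic cells at −0.56 and Irf8 at −0.32, both lower in every mouse with leukemia and neither passing. NK-cell markers overlapped in sum, 2573 to 3121 against 2080 to 3032, and none of the 5 passed. Klrd1 was at −1.03 and Eomes at −0.87, both lower in every mouse with leukemia, while Klrk1 and Nkg7, both at 0.06, and Ncr1, at 0.25 and given to complete the list after its value was seen, overlapped between groups. Plasma cell markers summed to 268 to 304 without leukemia and 313 to 451 with leukemia. No marker of erythroid cells or platelets was measured.

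**Figure D5:**
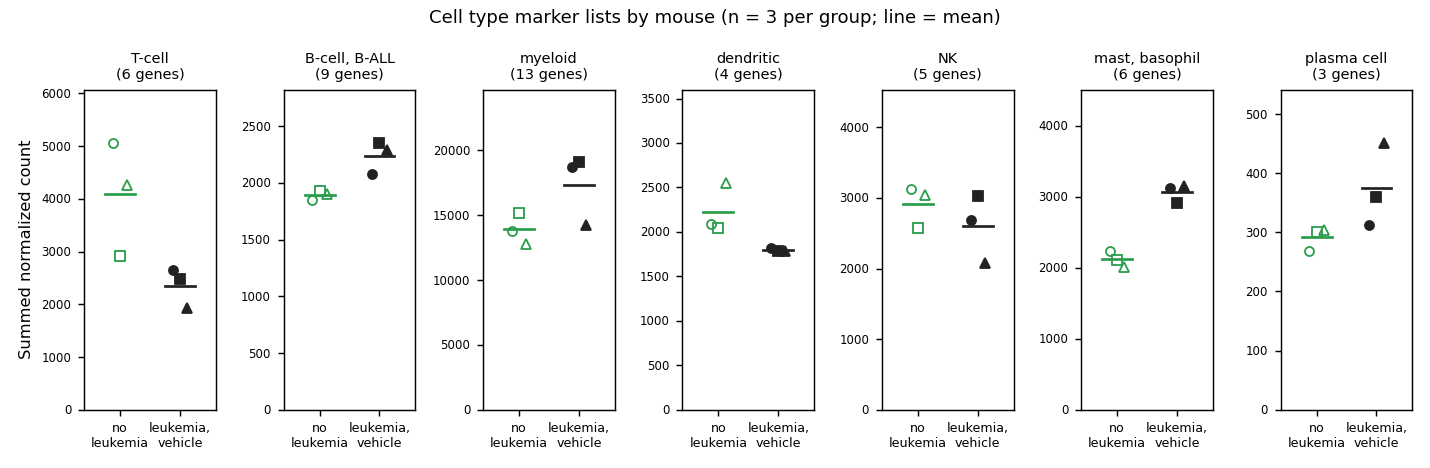
Summed normalized counts of 7 lists of cell type markers in each mouse without leukemia (green, open, n = 3) and each vehicle treated mouse with leukemia (black, filled, n = 3), with vertical axes from 0; circles, squares and triangles are mice 1, 2 and 3 and lines are means. T-cell and dendritic sums are lower in each mouse with leukemia, B-cell, mast cell and plasma cell sums are higher in each, and myeloid and NK sums overlap.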

How the data were processed

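RNA from T-cells isolated from the bone marrow of 9 mice was measured on the nCounter Mouse Immune Exhaustion panel by the authors, who deposited whole-number barcode counts for 785 probes before normalization. These values do not hold the nSolver normalization of the methods. Probe identifiers were matched to symbols through a RefSeq table for 751 probes and not for 34. Counts were scaled by TMM and tested with the quasi-likelihood test of edgeR 4.0.16 in R 4.3.3, with all 9 mice in 1 model of 3 groups and a prior count of 1. P-values were adjusted over all probes by the Benjamini-Hochberg method, and the test was tried on simulated data. Nothing in the labels says more of the replicates than that they were separate mice. Pairs of mice of 1 group differed by 5.54 to 60.0 in chi-square per degree of freedom, more than counting error alone. Mouse numbers come from the sample titles, and the deviations of same-numbered mice from their group means correlated at 0.25, 0.11 and 0.12. Those of differently numbered mice correlated at −0.25 to 0.13, so these values do not tell whether the number marks a pairing. A fit with the number as a block was run as an alternative.

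The normalized count is the count divided by the TMM-scaled total and multiplied by the mean of these totals. The 30 function lists, 8 marker lists and genes to be named were chosen with earlier results of these data known. Counts of list members set beside the share over all probes are therefore descriptions and not tests. The genes named were each differentially expressed gene, the 3 genes with the lowest unadjusted p of each function list, and markers above the viral probe; for any other gene the text says that it was picked after seeing its values. Alternatives were RLE, total count and housekeeping scaling, filters on a mean count of 20 and on the viral probe, prior counts of 0.1 and 10, the block, a model of 2 groups, robust variance, DESeq2 1.42.0, the methods' t-test, no fold or a 2-fold threshold, and each mouse left out. Promoters were read from RefSeq (GRCm38.p6) with Python 3.11.15. Flow cytometry, cytokine and human data were not analysed here. Results for some genes are not reported here.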

Additional observations from a re-analysis of the deposited data

How the results depend on the processing

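Of the 21 differentially expressed genes (10 higher, 11 lower), housekeeping scaling left 3 (2 higher, 1 lower), and adjusted p from the methods' t-test left 0 (0 higher, 0 lower), with 56 at an unadjusted p (25 higher, 31 lower). A model of only the 2 groups gave 63 (25 higher, 38 lower) and DESeq2 52, of which 38 were lower, and both held all 21. Leaving out 1 mouse at a time gave 0 to 42 genes, 0 to 15 higher and 0 to 27 lower. The 11 function lists with a differentially expressed gene became 0 with housekeeping scaling, 21 with the 2 groups and 0 to 18 with a mouse left out. With the mouse number as a block 20 genes passed, 19 of them shared, with Cd226 and Nfkb2 lost and Itgae gained, and no other call changed. RLE scaling, total count scaling, robust variance, both prior counts, both count filters and the fold thresholds gave 17 to 22 genes. The cause of these differences was not tested.

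No differentially expressed gene changed sign under any of the 15 alternatives or with any of the 9 mice left out. This says little about stability. The groups of these genes did not overlap, so leaving out 1 mouse could hardly reverse them. Alternatives that change only a threshold cannot change a sign. Of the 120 genes named by the rule, 10 changed sign, all with log2 fold changes not past the test. Cd79b was at 0.0925 with housekeeping scaling, 0.0130 with the filter on the viral probe, 0.0287 with the methods' t-test (adjusted or not) and between −0.285 and 0.221 with a mouse left out. Cd163 was at 0.0897 with housekeeping scaling, 0.0173 with the viral probe filter and between −0.153 and 0.0427 with a mouse left out, and Cd72 was at 0.0448 with housekeeping scaling. With a mouse left out, Ifit3 ranged from −0.0911 to 0.671, Cd22 from −0.106 to 0.235, Blk from −0.176 to 0.171, Tlr2 from −0.0151 to 0.236, Fcer1g from −0.0340 to 0.185, Klrk1 from −0.0825 to 0.116 and Nkg7 from −0.110 to 0.186. With 3 mice per group an exact permutation test of a single gene cannot give a p under 0.1. Counts at the level of the viral probe, where 251 other probes have their mean, limit what can be said of Il10, Lag3, Pdcd1 and Tnfrsf9 without leukemia.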
